A study of Homo sapiens with 3 samples.

Results

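Luminal and basal keratins were followed in RRAS2-silenced MDA-MB-231-Luc cells, as 10 genes fixed by identifier. The 4 luminal or simple keratins are KRT8 (ENSG00000170421), KRT18 (ENSG00000111057), KRT19 (ENSG00000171345) and KRT7 (ENSG00000135480). The 5 basal keratins are KRT5 (ENSG00000186081), KRT14 (ENSG00000186847), KRT17 (ENSG00000128422), KRT6A (ENSG00000205420) and KRT15 (ENSG00000171346), and the 1 hair-type keratin is KRT81 (ENSG00000205426). All 10 were present among the 24916 genes measured. The identifiers were paired with symbols by the list of members. That pairing was not checked against an annotation, because the reference gene table held an Ensembl identifier for 0 of its 59792 genes. MDA-MB-231 cells come from a long-established line of human breast cancer that lacks hormone receptors and has mesenchymal features. The cells, labelled KDRRAS2.p1, were a pool transduced with a lentivirus carrying the short hairpin RNA TRCN0000047025 against RRAS2, which encodes the RAS-family GTPase R-Ras2. RNA was taken in exponential growth and hybridised to Affymetrix arrays as 3 biological replicates. All 3 arrays belong to this 1 group and 1 hairpin, and arrays of the control-hairpin cells named in the series design were not analysed here. The values therefore describe keratins in the silenced cells and the spread between replicates. They do not give the effect of RRAS2 loss, and the level of RRAS2 and of markers of the line is not given because no identifier was paired with those symbols.

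Keratins are the intermediate filament proteins of epithelial cells. A filament is built from pairs of a type I (acidic) and a type II (basic) chain, so neither type forms filaments alone. In the breast, KRT8 and KRT18, with KRT7 and KRT19, mark the luminal cells that line the duct, whereas KRT5, KRT14, KRT15 and KRT17 mark the basal, myoepithelial layer. KRT6A is a keratin of stratified and wounded epithelium, and KRT81 is a structural keratin of the hair shaft. Pathologists stain for these proteins to separate luminal from basal-like breast tumours, and KRT8, KRT18 and KRT19 are often lowered when epithelial cells take on a mesenchymal state.

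The luminal keratins lay near the top of the signal range, and the basal keratins lay around its middle. All 4 luminal keratins and KRT81 were above the 75th percentile of their array on all 3 arrays, a position held by 23.9% of all genes, and 0 of the 5 basal keratins were. The main limit was the array's median, which is lower. On all 3 arrays 7 of the 10 keratins were above it (4 luminal, 2 basal and KRT81), beside 48.6% of all genes. KRT5 and KRT15 were below the median on all 3 arrays, and KRT6A changed side. No keratin was below the 25th percentile on all 3 arrays, where 23.4% of all genes lay. Values are RMA expression values read as log2, a scale the deposited table does not name. The median of all genes was 6.84, 6.81 and 6.80 in replicates 1, 2 and 3. Each gene has its own probes, so these positions describe signals and do not order the keratins by amount of RNA. A signal at mid-range is likewise not a measured background, and the basal keratins are not shown to be silent or expressed. In RNA from whole cultures, fewer cells making a keratin and less of its RNA per cell cannot be told apart.

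**Figure D1:**
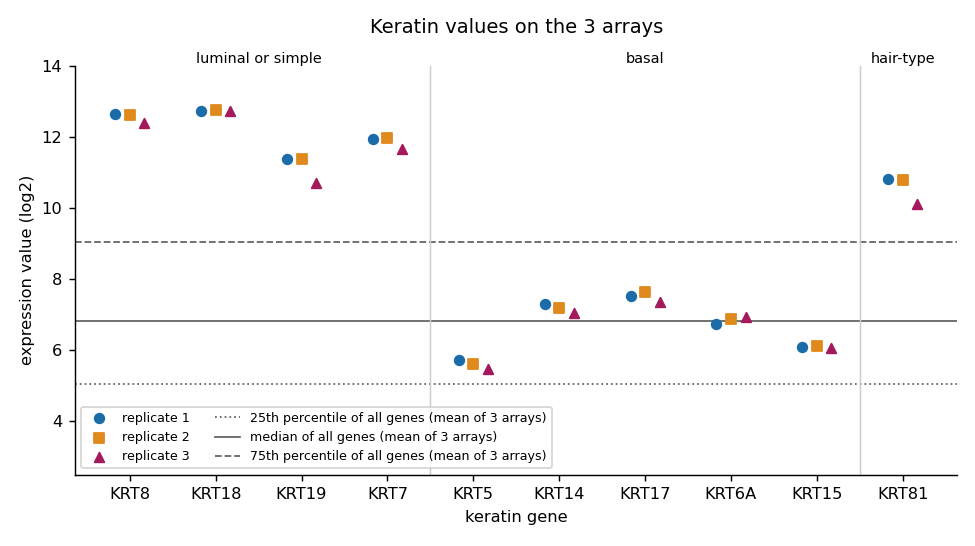
Expression value (log2, vertical axis) of each of the 10 keratins on the 3 arrays, 1 symbol per replicate, with horizontal lines at the 25th percentile, median and 75th percentile of all genes (mean of 3 arrays). The 4 luminal keratins and KRT81 sit above the upper line on every array, and the 5 basal keratins sit between the outer lines.

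Promoter sequences from RefSeq (build GRCh38.p14) were held for 2 of the 10 keratins. Both are shown because no others were held, and neither was picked by its pair or its signal. They are the windows of KRT5 and KRT8, which encode type II chains. Each is written 5′ to 3′ on the minus strand of chromosome 12, from 250 bases before the annotated start to 50 bases after it, and capitals mark motif matches. KRT5 is at chr12:52520345-52520644 and KRT8 at chr12:52926420-52926719.
KRT5: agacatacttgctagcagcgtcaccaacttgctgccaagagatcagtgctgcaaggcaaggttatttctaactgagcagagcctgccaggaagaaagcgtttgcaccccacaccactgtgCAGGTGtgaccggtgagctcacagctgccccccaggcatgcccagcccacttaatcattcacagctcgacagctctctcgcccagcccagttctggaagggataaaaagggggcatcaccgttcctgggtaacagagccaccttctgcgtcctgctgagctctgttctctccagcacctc
KRT8: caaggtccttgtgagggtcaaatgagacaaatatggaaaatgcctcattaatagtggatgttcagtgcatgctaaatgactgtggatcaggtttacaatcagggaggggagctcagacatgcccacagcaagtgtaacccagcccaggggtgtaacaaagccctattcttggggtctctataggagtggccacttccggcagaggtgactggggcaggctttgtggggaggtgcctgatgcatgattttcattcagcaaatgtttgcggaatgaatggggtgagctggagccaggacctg
Both strands were searched for exact matches to TATAAA (core promoter element), GGGCGG (Sp1-type box), CAGGTG (E-box) and TGACTCA (AP-1 element). No matches overlapped, and variant forms of the motifs were not searched. The KRT5 window held 1 match, CAGGTG on the printed strand, beginning at position -130 from the start, a motif present in 20.6% of 35116 promoters of the same length. The KRT8 window held 0 matches of the 4 motifs. TATAAA occurred in 11.5%, GGGCGG in 45.0% and TGACTCA in 4.95% of all promoters. The annotated start used for KRT8 lies 23391 bases inside the outer end of the gene in the same annotation, so the window belongs to 1 of several possible starts. These matches are descriptions of letters in a window and were not linked to the signals.

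KRT8 and KRT18, the main filament pair of simple epithelia, both gave values above 12 on every array, and KRT8 varied more between replicates than KRT18. KRT18 gave 12.72, 12.75 and 12.73 in replicates 1 to 3, for a mean of 12.73 ± 0.018 (SD, n = 3). Its 3 arrays were within 1.02-fold of each other, at the 99.1st to 99.2nd percentile of the array. KRT8 was at 12.64, 12.60 and 12.39 in the same order (mean 12.54 ± 0.14, SD, n = 3). Replicates 1 and 2 were close for KRT8, and replicate 3 was 0.23 log2 units (1.18-fold) below their mean. The KRT8 SD was 1.96 times the median SD of the 2492 genes of like signal (the same of 10 equal bands of mean level), which was 0.069, whereas that of KRT18 was 0.26 times.

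KRT19 and KRT7, the other luminal keratins, were also lower in replicate 3, and KRT19 by the wider margin. KRT19, the small type I keratin whose fragments are measured in serum as a tumour marker, gave 11.38 and 11.39 in replicates 1 and 2 but 10.71 in replicate 3. Its mean was 11.16 ± 0.39 (SD, n = 3). Replicates 1 and 2 differed by 0.0052 log2 units, and replicate 3 was 0.67 units (1.60-fold) below their mean. The position of KRT19 went from the 95.3rd percentile in replicates 1 and 2 to the 91.2nd in replicate 3. KRT7, a type II keratin of ductal and glandular epithelia, was at 11.94, 11.95 and 11.66 in replicates 1 to 3 (mean 11.85 ± 0.17, SD, n = 3). Replicate 3 was 0.29 units (1.22-fold) below the mean of the others, which differed by 0.015. Its position was the 97.4th percentile in replicates 1 and 2 and the 96.4th in replicate 3.

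KRT81, the hair-type keratin, was lower in replicate 3 by nearly the same margin as KRT19. It gave 10.82 and 10.78 in replicates 1 and 2 and 10.11 in replicate 3, for a mean of 10.57 ± 0.40 (SD, n = 3). Replicate 3 was 0.69 units (1.61-fold) below the mean of the other arrays, which differed by 0.044. Its position went from the 92.0th and 91.6th percentiles to the 86.1st. In the annotation (GRCh38.p14), KRT81 lies within the span of its close relative KRT86 and next to KRT83. The probes were not given in the sources used here, so signal from these copies in the KRT81 value was not tested.

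KRT5 and KRT14, the filament pair of basal cells, ranked the 3 arrays in the same order. KRT5 was at 5.73, 5.62 and 5.47 in replicates 1 to 3 (mean 5.60 ± 0.13, SD, n = 3), at the 31.6th to 34.9th percentile of the array. KRT14 was at 7.29, 7.20 and 7.05 in the same order (mean 7.18 ± 0.12, SD, n = 3), at the 52.9th to 55.4th percentile. For both genes replicate 1 was highest and replicate 3 lowest, over ranges of 0.26 and 0.24 log2 units. Their SDs were 1.35 and 1.17 times the median SD of genes of like signal, at the 68.5th and 58.9th percentiles. Replicate 3 lay further below the mean of the others in 11.0% (KRT5) and 15.1% (KRT14) of genes of like signal. KRT14 was above the array median on all 3 arrays by 0.25 to 0.45 units, and KRT5 was below it by 1.11 to 1.33 units.

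The remaining basal keratins did not share one direction. KRT17, a type I keratin of basal-like tumours and injured skin, was at 7.53, 7.63 and 7.35 in replicates 1 to 3 (mean 7.51 ± 0.14, SD, n = 3), with replicate 3 lower by 0.23 units. KRT6A was at 6.75, 6.87 and 6.93 (mean 6.85 ± 0.095, SD, n = 3), below the array median in replicate 1 by 0.090 units and above it in replicates 2 and 3 by 0.062 and 0.13 units. It was the 1 keratin of the 10 that was highest in replicate 3, as were 35.2% of all genes. KRT15, a type I keratin of basal and stem-like cells, was at 6.08, 6.11 and 6.07 (mean 6.09 ± 0.018, SD, n = 3), and its arrays lay within 1.02-fold of each other. KRT14 and KRT17 are flanked by their near copy KRT16 in the annotation, and KRT6A by its near copy KRT6C. Whether the probes separate these copies was not tested.

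Across the 10 keratins, replicate 3 was the odd array and lay mostly low. It was the lowest array for 8 of the 10 (3 of 4 luminal, 4 of 5 basal and KRT81), beside 37.9% of all genes and 38.6% of the 4984 genes in the upper 2 bands of mean level. The exceptions were KRT18 and KRT6A. For KRT15 the margin was 0.0094 units, and after each of 3 further normalisations it was no longer lowest, which left 7 of 10. In 4 keratins (KRT8, KRT19, KRT7 and KRT81) replicate 3 was over 0.2 units below both other arrays, a margin passed by 6.01% of all genes and 6.58% of the upper 2 bands. Both KRT19 and KRT81 passed 0.5 units, as did 0.405% of all genes and 0.321% (16 genes) of the upper 2 bands. The median of replicate 3 minus the mean of the others was -0.22 over the 10 keratins, -0.26 over the luminal 4 and -0.19 over the basal 5, against -0.0068 over all genes. These counts were chosen after the values were seen, and with 1 group of 3 arrays no test was possible.

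**Figure D2:**
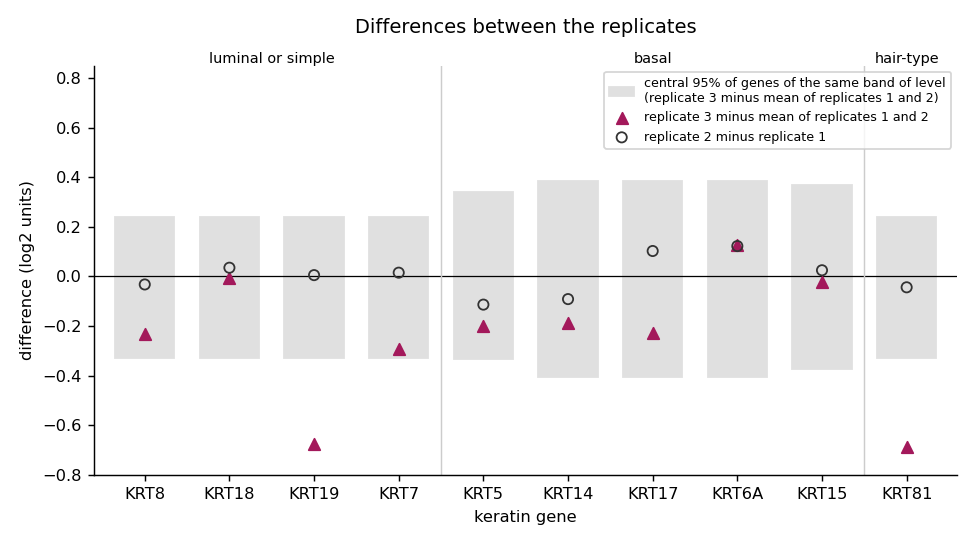
Replicate 3 minus the mean of replicates 1 and 2 (triangles) and replicate 2 minus replicate 1 (open circles) for each keratin, in log2 units, with grey bars for the central 95% of replicate 3 differences among genes of the same band of mean level. KRT19 and KRT81 lie below their grey bars at -0.67 and -0.69, and the open circles stay between -0.11 and 0.12.

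Set against genes of like signal, KRT19 and KRT81 were among the most variable, through replicate 3, and KRT18 and KRT15 varied little. In the top band of mean level, 7 of 2492 genes had a more negative replicate 3 difference than KRT19, and 5 had one than KRT81. Their SDs were 5.63 and 5.75 times the median of that band, at the 99.5th and 99.6th percentiles. KRT7 was at the 93.3rd percentile of SD and KRT8 at the 86.4th. By contrast, KRT18 was at the 5.34th percentile, and KRT15, in the fifth band from the bottom, at the 2.81st. Their small SDs moved with the normalisation, between 0.0067 and 0.034 for KRT18 and between 0.018 and 0.029 for KRT15. Their percentiles then lay between 0.762 and 14.2 and between 2.81 and 7.66. Without replicate 3, the SD was 0.0037 for KRT19 and 0.031 for KRT81. In all, 7 of 10 keratins had an SD above the median of their band, with KRT18, KRT6A and KRT15 below it. After each of 3 further normalisations the count was 8. KRT6A then lay between the 55.0th and 58.0th percentiles of SD, from the 45.6th as deposited. A range over 0.5 log2 units (1.41-fold) was seen for 2 of 10 keratins, KRT19 and KRT81, beside 3.52% of all genes and 1.65% of the upper 2 bands.

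Most of this spread was set by replicate 3. The median SD of the 10 keratins was 0.13 with all arrays and 0.028 without replicate 3. Without that array, 3 rather than 7 keratins exceeded the median SD of their band. Replicate 3 was named the odd array from these same values, so both falls describe the spread and are no separate support. Between replicates 1 and 2 the keratins differed by 0.0052 to 0.12 units, with a median of 0.039 against 0.084 over all genes. The luminal keratins differed there by at most 0.035 and KRT81 by 0.044, beside a median of 0.057 in the top band, which holds them. The basal keratins differed by a median of 0.10 and at most 0.12, close to the 0.10 to 0.11 of all genes in bands 4 to 6, which hold them. Of the 3 arrays, replicate 3 stood farthest from the middle one in 7 of the 10 keratins and in 41.7% of all genes. What set replicate 3 apart, in the culture or in the array, was not tested.

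**Figure D3:**
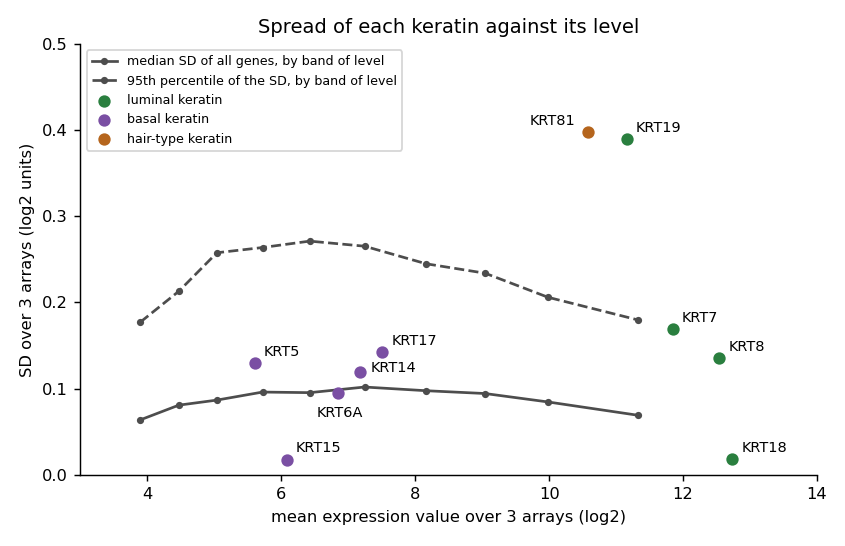
SD over the 3 arrays (log2 units, vertical axis) against mean expression value (log2) for each keratin, coloured by class, with the median (solid) and 95th percentile (dashed) of the SD of all genes in each band of level. KRT19 (SD 0.39) and KRT81 (SD 0.40) lie far above the dashed line, and KRT18 and KRT15 (both 0.018) lie below the solid line.

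The difference between a type II and a type I chain within an array shows whether both moved alike, since a shift shared by the whole array cancels. Its size carries no meaning, because the probes differ, but its change between arrays does. KRT5 minus KRT14 was -1.56, -1.58 and -1.58 in replicates 1 to 3 (mean -1.57 ± 0.013, SD, n = 3). This basal pair thus kept its difference within 0.022 units, while both members were lower in replicate 3 than in replicate 1. How closely other pairs of genes kept theirs was not counted. KRT8 minus KRT18 was -0.080, -0.15 and -0.34 (mean -0.19 ± 0.14), a widening of 0.26 units from replicate 1 to replicate 3 that came from KRT8. KRT7 minus KRT19 was 0.56, 0.57 and 0.95 (mean 0.69 ± 0.22), because KRT19 was lower by more than KRT7. KRT6A minus KRT17 was -0.79, -0.77 and -0.42 (mean -0.66 ± 0.21), as KRT6A was higher and KRT17 lower in replicate 3. Of the 4 pairs, the last 2 are combinations chosen here by class and not the usual filament partners.

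**Figure D4:**
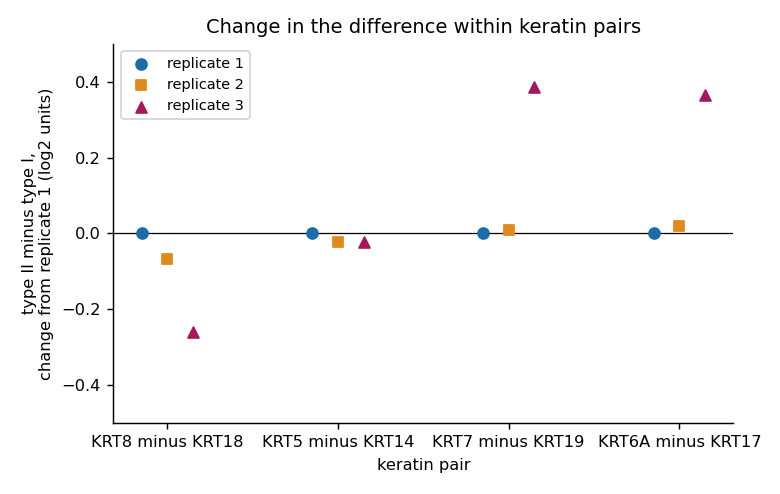
Type II minus type I keratin value within each array, as the change from replicate 1 (log2 units, vertical axis), for 4 pairs, 1 symbol per replicate. Replicate 2 stays within 0.068 units of replicate 1 in all 4 pairs, whereas replicate 3 moves by -0.26, -0.022, 0.39 and 0.37.

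In the 3 pairs of members that are adjacent coding genes, replicate 3 stood differently to the other arrays in the 2 genes of each pair. KRT8 and KRT18 are adjacent on chromosome 12, and their annotated spans overlap although their chains are of different types; signal shared through the overlap was not tested. Replicate 3 minus the mean of the others was -0.23 units for KRT8 and -0.0061 for KRT18. The KRT18 difference turned positive after each of 3 further normalisations. KRT15 and KRT19 are adjacent coding genes on chromosome 17, and their differences were -0.022 and -0.67. KRT6A and KRT5 are adjacent on chromosome 12, at 0.13 and -0.20. KRT7, which borders KRT86 on chromosome 12, and KRT81, which lies within the KRT86 span, were both lower, by 0.29 and 0.69 units.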

How the data were processed

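Total RNA of 3 replicate cultures was measured on Affymetrix arrays. The authors deposited 1 value per gene and array, read here as log2 values made with RMA and the affy package, per the submitters' processing notes. No source used here names the array model, the probe definition or a genome build. RMA pulls arrays to a common distribution and compresses differences near the lower end. All 24916 genes were kept, without a filter. The mean, SD and range, the percentile within each array (share of genes below) and the difference of replicate 3 from the mean of the others were computed with Python 3.11.15, numpy 2.4.6 and pandas 2.3.3. Genes were sorted by mean level into 10 bands of equal size. Alternatives were quantile normalisation, median centring and cyclic loess (limma 3.58.1 in R 4.3.3), other limits, and leaving out each replicate. All 10 keratins are named by rule, and none for likeness, since 3 arrays of 1 group hold no pattern across conditions. Fixed lists of other keratins and markers needed symbols and were not used, and no protein sequences were compared. The members and lists were chosen with earlier results of these data known. With 1 group, no test was made, and n = 3 limits the precision.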

Additional observations from a re-analysis of the deposited data

How the results depend on the processing

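The 4 luminal keratins and KRT81 stayed above the array median on every array used, under each of 3 normalisations and with each replicate left out. On the deposited values they also stayed above each other limit run. The 2 basal keratins above the limit became 1 with the array mean, 0 with the 75th percentile and 5 with the 25th percentile. The 8 keratins lowest in replicate 3 became 4 with a margin of 0.2 log2 units and 2 with a margin of 0.5; this count and its margins were chosen after the data were seen. The median SD of 0.13 ranged from 0.028 without replicate 3 to 0.17 without replicate 2. Keratins with an SD above the median of their band numbered 7, and 8 after each of 3 normalisations. With an array left out they numbered from 3 (without replicate 3) to 8 (without replicate 2). The difference of replicate 3 from the mean of the others kept its sign for 8 of 10 keratins. For KRT15 it was -0.022 as deposited, 0.0053 after quantile normalisation and 0.0028 after cyclic loess. For KRT18 it was -0.0061, and 0.047 after quantile normalisation, 0.014 with arrays centred on their medians, 0.0036 after cyclic loess, and from -0.024 without replicate 1 to 0.011 without replicate 2. For KRT19 it lay between -0.68 and -0.65 and for KRT81 between -0.71 and -0.67. The cause of these changes was not tested. No paired analysis was possible because there is a single group of arrays. Summarised values hold no measure of signal over background.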
